A study of Mus musculus with 6 samples.

Results

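Sterol and fatty acid synthesis genes were followed by RNA sequencing in 6 whole livers from C57BL/6 mice, an inbred strain. Of 40 genes named for these pathways, 39 were found by symbol among the 8390 genes of the table, 19 of 20 in the sterol branch and 20 of 20 in the fatty acid branch; Idi1 was not among the listed genes. The LV group held 3 mice that received 3e8 transducing units of a lentiviral vector (LV), a gene delivery particle that cannot replicate, into a vein, and whose liver was taken after 4 h. The untreated group held 3 mice labelled as given no treatment. All 6 mice carried the same strain label, and neither age, sex, housing nor feeding is described. There was no mock-injected group, so the vector and the injection cannot be told apart, and as nothing beyond the titles describes the replicates, the p-values speak only of the spread among these 6 samples.

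Hepatocytes build cholesterol and fatty acids from cytosolic acetyl-CoA. The sterol branch runs through mevalonate, isoprenoids and squalene to cholesterol, and its genes are switched on together by the transcription factor SREBP-2 when membrane sterol falls; Insig1 and Scap hold or escort that factor in the endoplasmic reticulum. The fatty acid branch carboxylates acetyl-CoA, elongates and desaturates the chain and joins it to glycerol, and it is driven by SREBP-1c under insulin and by the carbohydrate-responsive factor Mlxipl.

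Values are the deposited whole numbers, which appear to be scaled and rounded, and neither the scaling nor the unit is named in the labels. Column sums lay between 497295 and 526009. They were not taken as read totals, so the depth is unknown, and counting intervals are left out. Fold changes are LV minus untreated means of log2(value + 1), given with the standard error and 95% interval from limma, and they understate changes at low values. Lists of 3 values are in the order of replicates 1, 2 and 3.

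Some libraries stood apart within their groups. In the libraries, the male-biased gene Cyp4a12a, a fatty acid hydroxylase, had 0, 0 and 186 in LV livers, against 2, 136 and 3 in untreated livers. Cyp2b9, a female-biased P450, had the opposite order, with 152, 157 and 8 in LV livers, against 121, 5 and 149 in untreated livers. Of 10 male-biased genes tested, 9 were highest in LV replicate 3 within the LV group and in untreated replicate 2 within the untreated group, and of 14 female-biased genes 10 were lowest in both, although the summed male-biased value was higher in untreated replicate 3 (8486) than in untreated replicate 2 (8147). The Y-linked gene Ddx3y, an RNA helicase, had 12, 12 and 13 in LV livers, against 10, 14 and 0 in untreated livers. Eif2s3y, also Y-linked, was likewise at 0 in untreated replicate 3 and at 16 to 22 in every other library. Only the untreated group thus held a library without these transcripts, so the groups were not balanced in them. LV replicates 1 and 2 and untreated replicate 1, low in Cyp4a12a, also had these transcripts, so a male-biased profile is not read as sex here. All 12 hepatocyte markers, such as Alb and Hnf4a, were listed. Of the markers of lymphocytes 1 of 14 was listed, of cholangiocytes 1 of 6, of adipocytes 1 of 6 and of neutrophils 0 of 11.

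The sterol branch showed no gene called between LV and untreated livers, but it varied strongly from liver to liver, and its genes did so together. With limma and Benjamini-Hochberg adjustment over 8386 tested genes, 0 of 19 members were higher and 0 were lower at an adjusted p under 0.05, where 0.87% of the tested genes were lower and 3.76% higher (4.63% in either direction). At an unadjusted p under 0.05, 1 member was lower and 0 were higher, where 10.3% of all tested genes were lower and 9.21% higher. The fold change was negative in 17 of 19 members, where 58% of all tested genes were negative, and its median was -0.30, beside -0.07 over all tested genes. In whole liver, fewer cells of a type and less RNA per cell cannot be told apart.

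**Figure D1:**
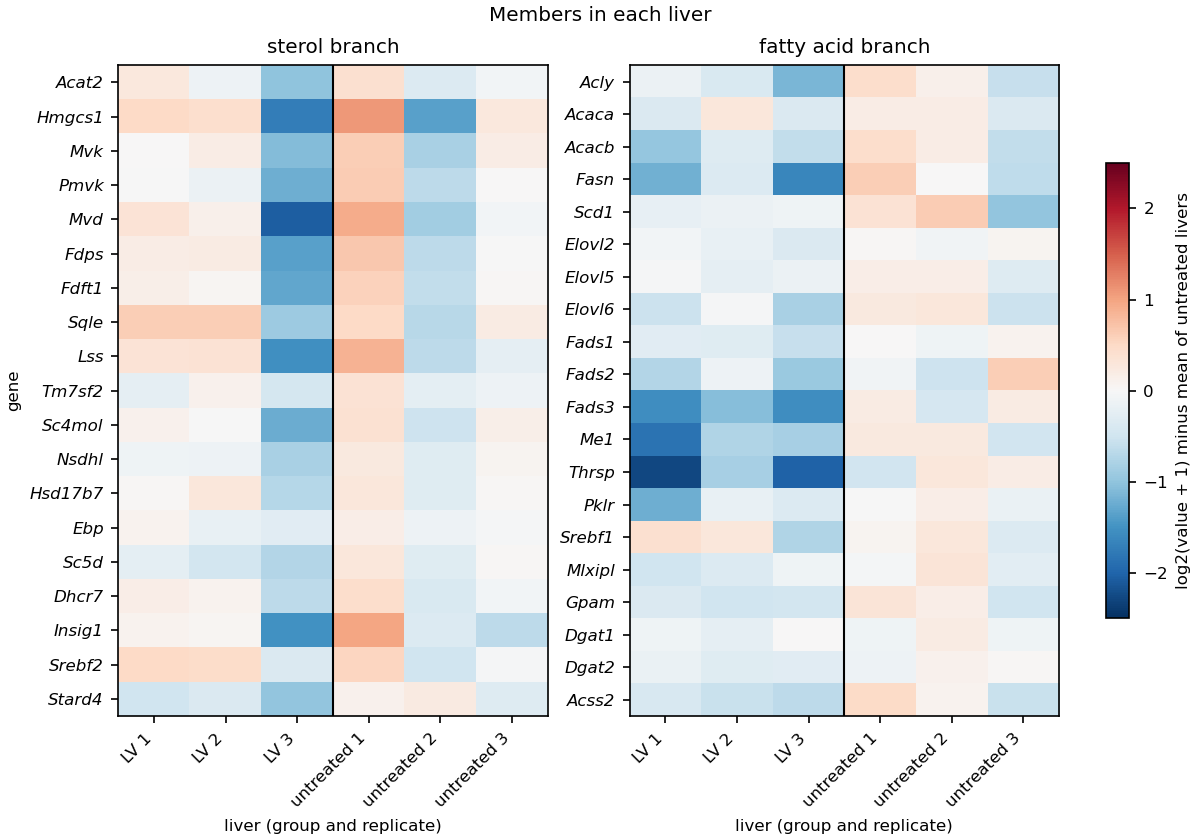
Each cell is 1 gene in 1 liver, coloured by log2(value + 1) minus the mean of the 3 untreated livers; rows are genes in pathway order and columns are livers, LV left of the line. The sterol panel is bluest in LV replicate 3 and untreated replicate 2, whereas in the fatty acid panel Fads3, Me1 and Thrsp are blue in all 3 LV livers.

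Every sterol member had its lowest LV value in replicate 3, and 17 of 19 had their lowest untreated value in replicate 2. These are the livers in which most male-biased genes were highest. Of all tested genes, 9.87% had their single lowest value in both of these libraries, and of the 4948 genes whose mean lay within the range of the members, 12.5% did. The exceptions were Insig1 and Stard4, which were lowest in untreated replicate 3 instead. The branch median, relative to the untreated mean on the log2(value + 1) scale, was 0.11, 0.09 and -1.01 in LV livers, against 0.50, -0.51 and -0.01 in untreated livers. The 3 medians of each group thus overlapped, and the library at the bottom of each group was the one with the male-biased profile. Within untreated livers the highest value of a sterol member was a median of 2.11 times the lowest, compared with 1.33 times for all tested genes. Within LV livers it was 2.54 times the lowest, compared with 1.30 times for all tested genes. Wide spreads were not particular to this branch. In untreated and LV livers they were 2 and 1.70 for clock genes, and 2 and 1.88 for genes of fasting and feeding. Male-biased genes had 8.38 and 11.2, and female-biased genes 7.38 and 2.15. Fatty acid members had 1.64 and 1.56, and hepatocyte markers 1.22 and 1.26.

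**Figure D2:**
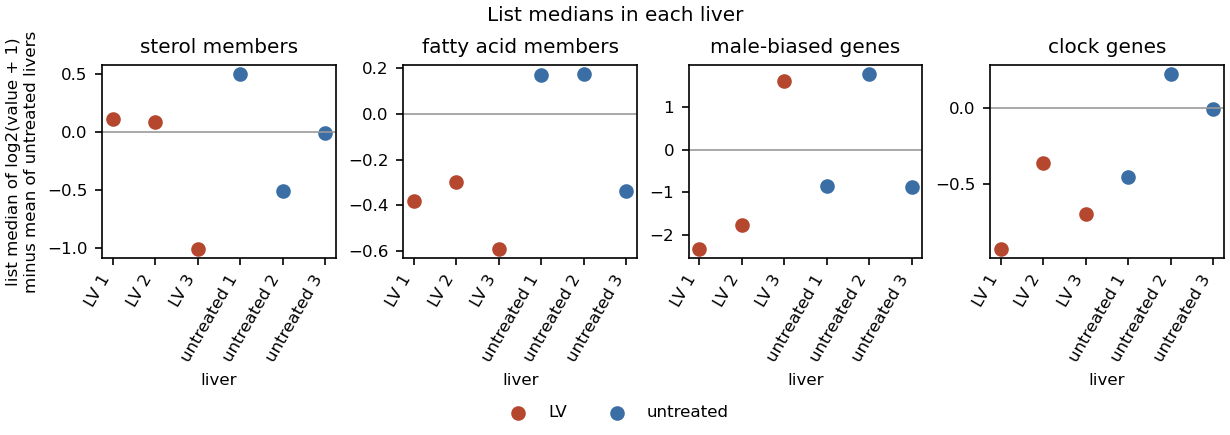
Each point is 1 liver (x axis, LV in red and untreated in blue), and the y axis is the median over a gene list of log2(value + 1) minus the mean of the untreated livers; the y range differs between panels. The sterol median is lowest where the male-biased median is above 0, in LV replicate 3 (-1.01) and untreated replicate 2 (-0.51), while the fatty acid median is -0.59 to -0.30 in LV livers and lowest among untreated livers in replicate 3 (-0.34).

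The first steps of the branch join acetyl-CoA units. Hmgcs1, which makes the precursor of mevalonate, had 268, 251 and 56 in LV livers, against 402, 73 and 227 in untreated livers. The low liver of each group lay far below its fellows, and the groups overlapped. The log2 fold change of Hmgcs1 was -0.27 ± 0.88 (95% interval -2.47 to 1.93, limma adjusted p = 0.896), so neither a large fall nor a large rise is outside the interval. Acat2, the cytosolic thiolase at the entry, had 28, 21 and 11 in LV livers, against 31, 18 and 22 in untreated livers (adjusted p = 0.703). The kinases Mvk and Pmvk and the decarboxylase Mvd carry mevalonate to the isoprenoid unit. Mvd had 36, 31 and 6 in LV livers, against 55, 15 and 27 in untreated livers, so its LV values spanned 6.00-fold and the fold change of -0.53 ± 0.80 (limma adjusted p = 0.741) was smaller than that span. Mvk and Pmvk had log2 fold changes of -0.30 and -0.47 (limma adjusted p = 0.776 and 0.611).

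Isoprenoid and squalene enzymes were lowest in the same livers. Fdps, which makes farnesyl diphosphate, had 129, 132 and 44 in LV livers, against 182, 72 and 113 in untreated livers. Fdft1, squalene synthase, had 62, 58 and 22 in LV livers, against 84, 36 and 57 in untreated livers. Sqle, the oxygen-dependent and rate-limiting epoxidase, was the only enzyme of the branch with a positive fold change. Its values were 68, 68 and 23 in LV livers, against 63, 27 and 51 in untreated livers, and its log2 fold change was 0.10 ± 0.53 (95% interval -1.24 to 1.44, limma adjusted p = 0.955), and below 0 without LV replicate 1, without LV replicate 2 and without untreated replicate 2. Lss, which closes the ring to lanosterol, had 43, 44 and 11 in LV livers, against 63, 21 and 29 in untreated livers. In each of these genes the lowest of all 6 livers was LV replicate 3.

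Enzymes that turn lanosterol into cholesterol mostly had narrower spreads. Sc4mol (now Msmo1), a demethylase, had 112, 103 and 43 in LV livers, against 135, 72 and 114 in untreated livers, and was the widest of them. Sc5d, the desaturase of the sterol ring, had 213, 185 and 152 in LV livers, against 308, 205 and 260 in untreated livers, with a log2 fold change of -0.48 ± 0.20 (95% interval -0.98 to 0.02, limma adjusted p = 0.263). Its LV values lay low in the untreated range or below it, and 1 LV liver stood above the lowest untreated liver. Ebp, a sterol isomerase, was the steadiest member, at 165, 138 and 128 in LV livers, against 176, 142 and 152 in untreated livers. The reductases Tm7sf2 and Dhcr7, the dehydrogenase Nsdhl and the ketoreductase Hsd17b7 had log2 fold changes between -0.36 and -0.13, with limma adjusted p of 0.486 (Nsdhl) and above.

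The regulators of the branch, and a sterol carrier, gave 0 calls. Srebf2, which encodes SREBP-2, had 39, 38 and 21 in LV livers, against 40, 19 and 27 in untreated livers (log2 fold change 0.19 ± 0.36, 95% interval -0.70 to 1.09, limma adjusted p = 0.799), with -0.06 when untreated replicate 2 was left out. Insig1, which retains the SREBP complex and is itself a target of SREBP, had 132, 129 and 43 in LV livers, against 248, 98 and 79 in untreated livers (-0.46 ± 0.63, limma adjusted p = 0.718). Stard4, a cytosolic carrier of cholesterol, was the only sterol member whose groups did not overlap. It had 30, 33 and 21 in LV livers, against 46, 50 and 34 in untreated livers, with a log2 fold change of -0.62 ± 0.22 that did not pass over all genes (limma adjusted p = 0.219); every LV value lay below every untreated value in 11% of all tested genes.

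**Figure D3:**
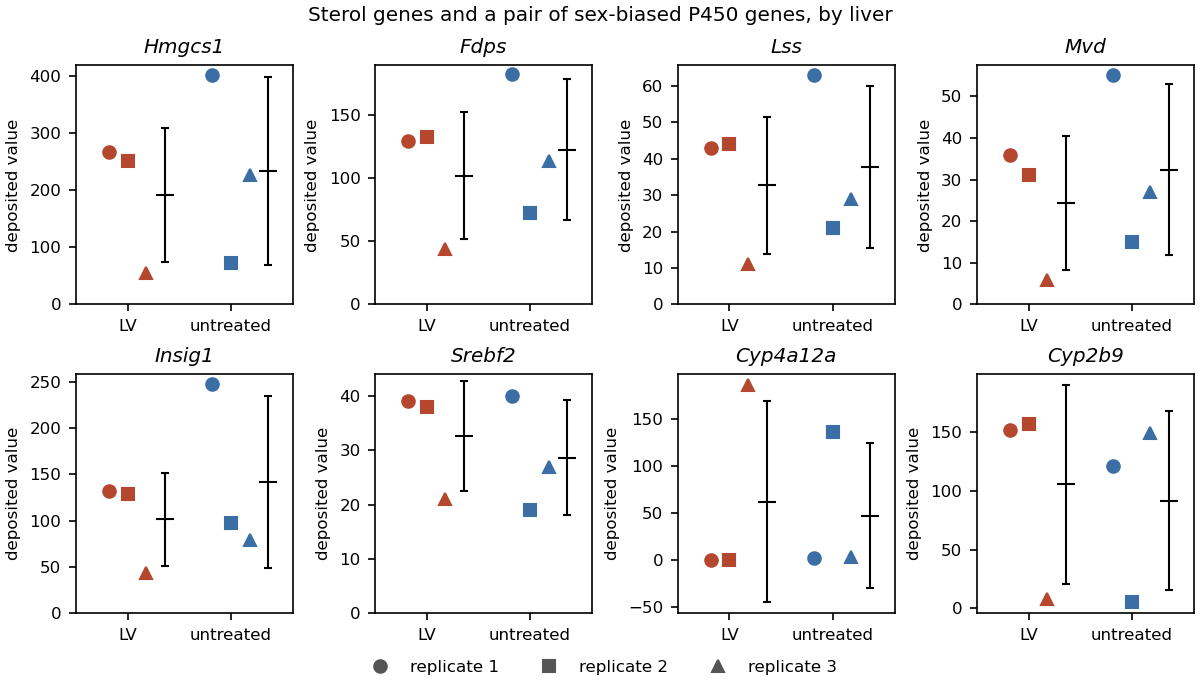
Deposited value (y axis) of 6 sterol members and 2 sex-biased P450 genes in each liver; marker shape gives the replicate, LV is red on the left, untreated blue on the right, and black bars are mean and SD (n = 3). In Hmgcs1 the LV triangle (56) and the untreated square (73) lie at the bottom, and the same 2 symbols are at the top in Cyp4a12a (186 and 136) and at the bottom in Cyp2b9 (8 and 5).

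The direction of the branch as a whole turned on single livers. Without LV replicate 3, 13 of 19 fold changes were positive and the median was 0.10. Without untreated replicate 2, all 19 were negative and the median was -0.61. With both of these libraries left out, 15 were negative and 3 positive, with a median of -0.18, and without untreated replicate 1 the median was 0.0020 with 9 negative. Across these 4 fits 0 sterol members were called. Whether the male-biased profile has a part in the sterol values was not tested.

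The remaining genes of the sterol pathway held 23 listed of 30, and 0 were called in either direction. At an unadjusted p under 0.05, 1 was higher and 4 of 23 were lower, where 9.21% of all tested genes were higher and 10.3% lower, and the median log2 fold change was -0.18. Scap, the escort that SREBP needs to leave the endoplasmic reticulum, had 50, 59 and 58 in LV livers, against 107, 78 and 77 in untreated livers. The groups did not overlap, and the log2 fold change was -0.63 ± 0.16 (limma adjusted p = 0.105). Rnf139, a ubiquitin ligase of the endoplasmic reticulum, had 12, 11 and 12 in LV livers, against 8, 10 and 8 in untreated livers (limma adjusted p = 0.138). Erlin1, a partner of the SREBP complex, had 17, 16 and 15 in LV livers, against 21, 24 and 19 in untreated livers (limma adjusted p = 0.139). In 7 of the 23, Acat1, Cyp51, Soat2 and Tmem97 among them, the lowest values stood in LV replicate 3 and untreated replicate 2 as in the members; the genes named here were picked out after their values were seen. Cyp51, the lanosterol demethylase, had 57, 52 and 25 in LV livers, against 68, 37 and 57 in untreated livers.

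The sequences just before the starts of sterol genes were compared with those of other genes. RefSeq windows of assembly GRCm38.p6 were found for 15 of the 19 measured sterol members and 16 of the 20 fatty acid members, and the 250 bases before each annotated start were searched on both strands. The motifs were the sterol regulatory element TCACNCCAC, the E-box CACGTG, the CCAAT box CCAAT, which NF-Y binds, and the GC box GGGCGG, which Sp1 binds. CCAAT stood in 14 of 18 sterol windows (77.8%) and in 12 of 23 fatty acid windows (52.2%), compared with 35.0% of windows of the genes in the table and 33.8% of all 32851 windows. GGGCGG stood in 15 of 18 sterol windows (83.3%) and in 10 of 23 fatty acid windows (43.5%), compared with 58.3% for the genes in the table and 32.7% of all windows. TCACNCCAC stood in 1 sterol window, that of Hmgcs1, and in 1 fatty acid window of Mlxipl, compared with 1.17% for the genes in the table and 1.05% of all windows. CACGTG stood in 4 sterol windows (22.2%) and 2 fatty acid windows (8.70%), compared with 8.63% for the genes in the table and 6.02% of all windows. A match of letters is a description and not a binding site, and several genes have more than 1 window. Whether these motifs have a part in the variation between livers was not tested.

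The 4 sterol promoters shown are those of members with a wide spread between livers, at chr13:119690101-119690350 on the plus strand for Hmgcs1, chr8:122443423-122443672 on the minus strand for Mvd, chr10:76531355-76531604 on the plus strand for Lss and chr5:28071162-28071411 on the plus strand for Insig1. They are written 5′ to 3′ and end at the base before the start, and capitals mark any match to the 4 motifs on either strand.
Hmgcs1: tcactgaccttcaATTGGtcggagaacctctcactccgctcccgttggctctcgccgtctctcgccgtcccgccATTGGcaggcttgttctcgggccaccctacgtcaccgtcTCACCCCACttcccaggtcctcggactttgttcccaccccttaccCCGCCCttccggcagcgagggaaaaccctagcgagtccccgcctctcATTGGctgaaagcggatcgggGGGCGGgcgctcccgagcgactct
Mvd: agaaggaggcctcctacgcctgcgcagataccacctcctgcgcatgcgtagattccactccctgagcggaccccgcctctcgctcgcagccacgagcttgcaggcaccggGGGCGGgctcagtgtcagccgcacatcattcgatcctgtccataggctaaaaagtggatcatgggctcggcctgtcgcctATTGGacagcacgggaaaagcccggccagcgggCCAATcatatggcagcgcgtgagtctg
Lss: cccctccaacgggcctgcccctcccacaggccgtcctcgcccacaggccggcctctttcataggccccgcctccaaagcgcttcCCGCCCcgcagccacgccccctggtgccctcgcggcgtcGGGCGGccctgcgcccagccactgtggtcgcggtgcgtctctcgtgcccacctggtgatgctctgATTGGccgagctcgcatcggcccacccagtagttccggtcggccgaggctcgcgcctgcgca
Insig1: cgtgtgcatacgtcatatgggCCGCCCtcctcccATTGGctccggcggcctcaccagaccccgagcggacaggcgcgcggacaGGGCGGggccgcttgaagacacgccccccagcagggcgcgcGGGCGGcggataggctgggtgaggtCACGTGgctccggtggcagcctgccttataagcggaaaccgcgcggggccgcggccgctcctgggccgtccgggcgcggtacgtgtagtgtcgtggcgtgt
In Hmgcs1 the sterol element match TCACCCCAC lay 137 to 129 bases before the start, with CCAAT matches before it and 2 GC box matches and a further CCAAT match after it. Insig1 held the E-box match, 101 to 96 bases before the start. All 4 promoters held at least 1 CCAAT match and 1 GC box match.

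In the fatty acid branch 1 gene, the desaturase Fads3, fell, and the other 19 members did not pass the test. Of 20 members, 1 was lower and 0 were higher at an adjusted p under 0.05 in limma, where 0.87% of all tested genes were lower. At an unadjusted p under 0.05, 5 were lower and 0 higher, where 10.3% of all tested genes were lower. All 20 fold changes were negative (median -0.45), where 58% of all tested genes were negative (median -0.07). That of Srebf1 was close to 0 and turned positive under median-of-ratios scaling and quantile normalization. Without untreated replicate 1, and likewise without untreated replicate 2, 18 were negative. Scd1 and Acaca also changed sign in at least 1 fit with libraries left out. In 6 members (Fads1, Fads3, Me1, Thrsp, Pklr and Dgat2) every LV value lay below every untreated value, where 11% of all tested genes did so.

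**Figure D4:**
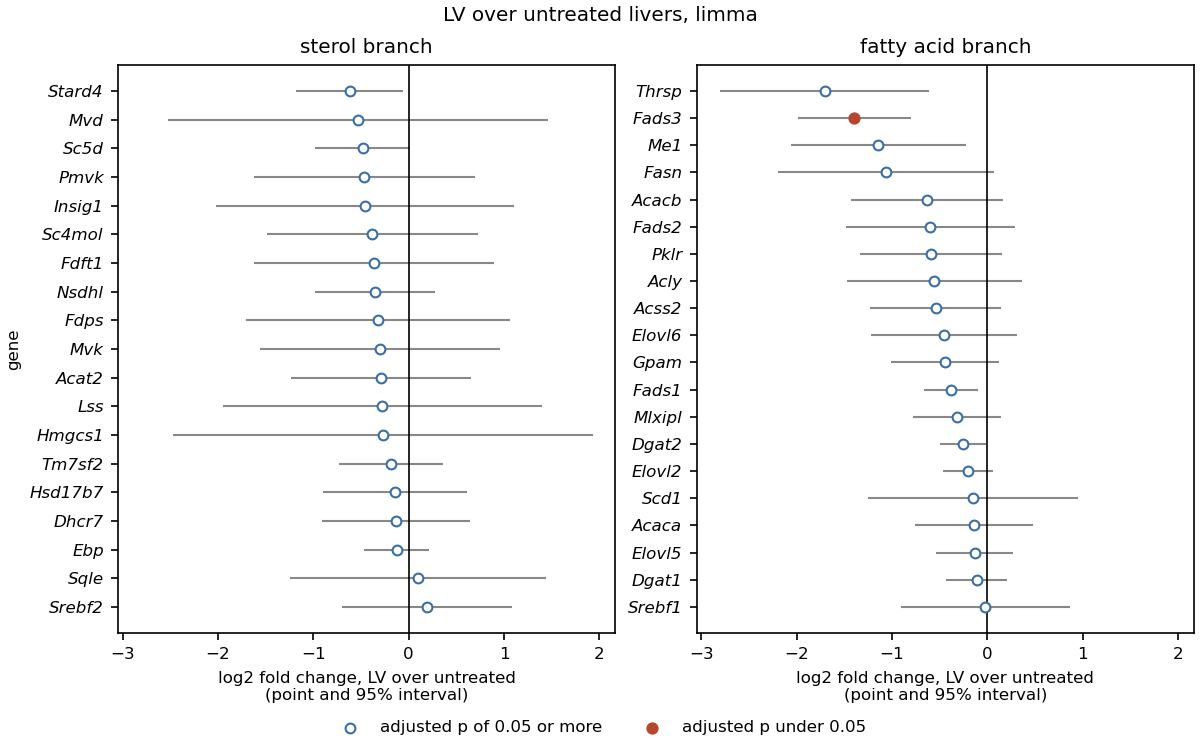
Points are log2 fold changes, LV over untreated (x axis), with 95% intervals from limma (n = 3 livers in each group), for the members on the y axis of each branch sorted by size; the filled point has an adjusted p under 0.05. The sterol intervals all reach past 0 except that of Stard4, and Fads3 (-1.39) is the filled point.

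Desaturases put double bonds into fatty acids, and Fads3, Fads2 and Fads1 are consecutive protein-coding genes in the RefSeq annotation of GRCm38.p6. Fads3, whose product acts on sphingoid bases, had 4, 6 and 4 in LV livers, against 16, 10 and 16 in untreated livers. The groups were separate, with a mean of 4.67 ± 1.15 in LV livers and 14.0 ± 3.46 in untreated livers (SD, n = 3 each). The log2 fold change was -1.39 ± 0.24 (95% interval -1.99 to -0.80, limma adjusted p = 0.0375). The values are small whole numbers after rounding, and the call was lost when any 1 LV liver was left out (limma adjusted p = 0.152, 0.0836 and 0.0943 without replicates 1, 2 and 3) and without untreated replicate 1 or 3 (0.144 and 0.138). The fold change stayed between -1.60 and -1.29 with any single library left out, and without untreated replicate 2 the adjusted p was 0.0326. Fads1, the delta-5 desaturase, had 165, 162 and 134 in LV livers, against 201, 186 and 213 in untreated livers, also without overlap (-0.38 ± 0.11, limma adjusted p = 0.15). Fads2, the delta-6 desaturase between them, had 196, 298 and 172 in LV livers, against 308, 227 and 500 in untreated livers, and overlapped (-0.60 ± 0.35, limma adjusted p = 0.407). Scd1, which makes oleate, had 1081, 1119 and 1154 in LV livers, against 1591, 1927 and 621 in untreated livers. LV livers were nearly alike and untreated livers spanned 3.10-fold, so the log2 fold change of -0.15 ± 0.44 (limma adjusted p = 0.879) became -0.65 without untreated replicate 3 (adjusted p = 0.117) and 0.17 without untreated replicate 2.

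Genes that respond to carbohydrate and thyroid hormone had negative fold changes with 0 calls. Thrsp, a nuclear protein that promotes lipogenesis, had 131, 362 and 158 in LV livers, against 462, 784 and 729 in untreated livers. The groups did not overlap, and the log2 fold change of -1.71 ± 0.44 (95% interval -2.81 to -0.61) was the largest of all 39 members but did not pass over all genes (limma adjusted p = 0.11; 0.0424 with noise added for rounding). Me1, the malic enzyme that supplies NADPH, had 8, 18 and 17 in LV livers, against 37, 37 and 22 in untreated livers (-1.14 ± 0.37, limma adjusted p = 0.176). Pklr, liver pyruvate kinase, had 56, 117 and 104 in LV livers, against 132, 150 and 118 in untreated livers, where LV replicate 2 came within 1 unit of untreated replicate 3 (-0.59 ± 0.30, limma adjusted p = 0.337). Mlxipl itself had 109, 121 and 142 in LV livers, against 148, 193 and 128 in untreated livers, which overlapped (limma adjusted p = 0.395).

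The core synthesis enzymes had negative fold changes with wide intervals. Acly, which cleaves citrate to acetyl-CoA, had 94, 80 and 47 in LV livers, against 142, 115 and 70 in untreated livers (-0.56 ± 0.37, limma adjusted p = 0.453). Fasn, fatty acid synthase, had 64, 116 and 47 in LV livers, against 228, 150 and 95 in untreated livers, so 1 LV liver lay above the lowest untreated liver. Its mean was 75.7 ± 35.9 in LV livers and 157.7 ± 66.8 in untreated livers (SD, n = 3 each), with a log2 fold change of -1.06 ± 0.45 (95% interval -2.19 to 0.07, limma adjusted p = 0.279). Acaca, the cytosolic acetyl-CoA carboxylase and committed step, had 8, 13 and 8 in LV livers, against 12, 12 and 8 in untreated livers (limma adjusted p = 0.783). Acacb, the mitochondrial carboxylase that makes the inhibitor of fatty acid import, had 13, 21 and 17 in LV livers, against 36, 30 and 17 in untreated livers (limma adjusted p = 0.334). Acss2, which activates acetate, had 85, 76 and 71 in LV livers, against 157, 120 and 76 in untreated livers (limma adjusted p = 0.334).

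**Figure D5:**
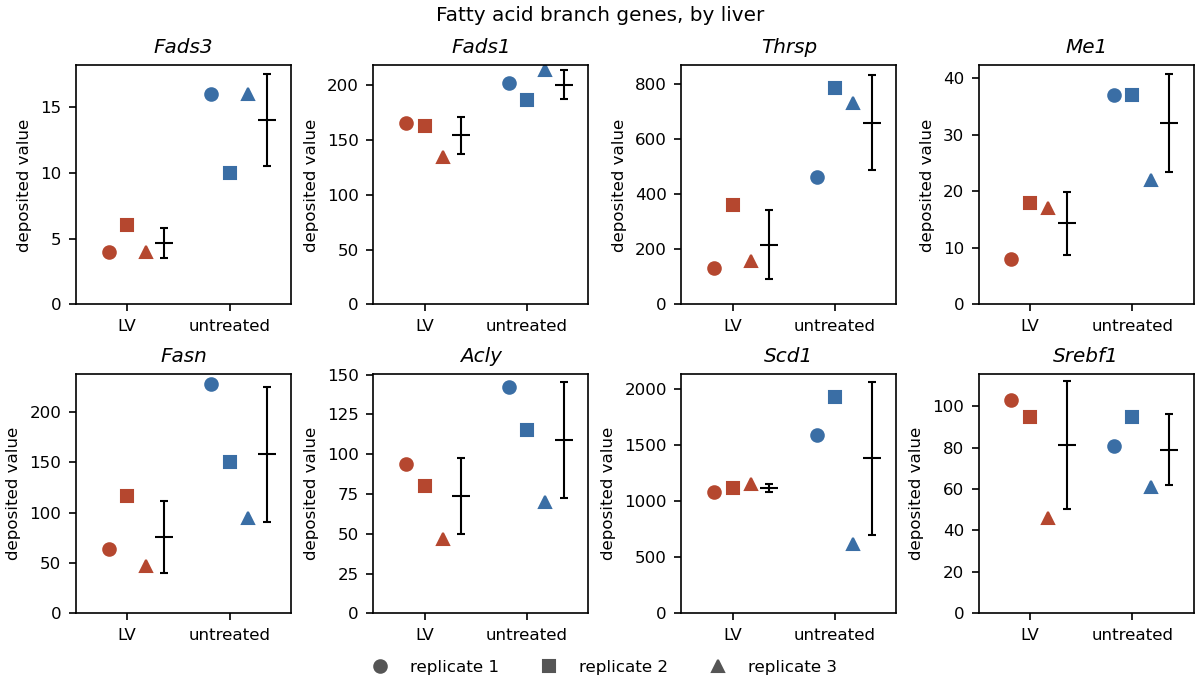
Deposited value (y axis) of 8 fatty acid branch genes in each liver; marker shape gives the replicate, LV is red on the left, untreated blue on the right, and black bars are mean and SD (n = 3). Fads3, Fads1, Thrsp and Me1 do not overlap between groups, and in Fasn, Acly, Scd1 and Srebf1 the untreated triangle (replicate 3) is the lowest untreated value.

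Elongases and esterifying enzymes gave 0 calls. Elovl2, which lengthens polyunsaturated chains, had 157, 144 and 128 in LV livers, against 167, 154 and 173 in untreated livers (limma adjusted p = 0.338), and Elovl5 and Elovl6 had log2 fold changes of -0.13 and -0.46 (limma adjusted p = 0.686 and 0.46). Dgat2, which makes most triglyceride in hepatocytes, had 333, 304 and 306 in LV livers, against 342, 402 and 381 in untreated livers. Those ranges were narrow and did not overlap, and the log2 fold change of -0.25 ± 0.10 (95% interval -0.49 to -0.01) did not pass (limma adjusted p = 0.24). Dgat1 stayed between 10 and 14 in all 6 livers. Gpam, the first acyltransferase of glycerolipid synthesis, had 55, 50 and 51 in LV livers, against 89, 80 and 50 in untreated livers, with a limma adjusted p of 0.341, and of 0.0513 without untreated replicate 3.

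The master regulator Srebf1, which encodes SREBP-1, had 103, 95 and 46 in LV livers, against 81, 95 and 61 in untreated livers. Its log2 fold change was -0.02 ± 0.35 (95% interval -0.91 to 0.87, limma adjusted p = 1.00), and 0.34 without LV replicate 3. The lowest liver of Srebf1 was replicate 3 in either group.

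In the untreated group the low liver of the fatty acid branch was not that of the sterol branch, while LV replicate 3 had the lowest LV median in both. Untreated replicate 3, the library with Y-linked genes at 0, was the lowest untreated liver in 13 of 20 fatty acid members, in 2 of 19 sterol members and in 36.8% of all tested genes. The pattern of the sterol branch, lowest in LV replicate 3 and untreated replicate 2, was found in 3 of 20 (15.0%). The branch median was -0.38, -0.30 and -0.59 in LV livers, against 0.17, 0.17 and -0.34 in untreated livers, so untreated replicate 3 lay among the LV livers. With that library left out the median fold change was -0.66, and without LV replicate 3 and untreated replicate 2 it was -0.30 with 17 negative. No difference between the branches was tested, and the part of untreated replicate 3 in the fatty acid values was not tested.

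Among other genes of lipogenesis and lipid storage, 39 were listed of 46, 4 of them by a synonym. At an adjusted p under 0.05 in limma, 1 was higher (Usf1), 1 was lower (Acsl1) and 37 were not called. Of all tested genes, 3.76% were higher and 0.87% lower. These are calls of single genes, and the list as a whole was not tested. Usf1, a factor that binds E-boxes in lipogenic promoters, had 29, 24 and 23 in LV livers, against 13, 11 and 11 in untreated livers (log2 fold change 1.05 ± 0.12, limma adjusted p = 0.0111). Acsl1, which activates long-chain fatty acids, had 111, 138 and 153 in LV livers, against 243, 266 and 281 in untreated livers (-0.98 ± 0.14, limma adjusted p = 0.0234). The groups were separate in both genes. The Usf1 call did not hold without LV replicate 2, untreated replicate 2 or untreated replicate 3 (limma adjusted p = 0.0633, 0.0512 and 0.0626), nor that of Acsl1 without LV replicate 2 or any 1 of the untreated livers (between 0.0798 and 0.113). Slc25a1, the mitochondrial citrate carrier that feeds Acly, had 98, 106 and 114 in LV livers, against 155, 143 and 142 in untreated livers (-0.47 ± 0.09, limma adjusted p = 0.0517). Lpin2, a phosphatidate phosphatase, had 38, 48 and 46 in LV livers, against 63, 66 and 79 in untreated livers (limma adjusted p = 0.0697). Ppargc1b, a coactivator of SREBP-1, had 1, 2 and 4 in LV livers, against 7, 9 and 11 in untreated livers (-1.67 ± 0.36, limma adjusted p = 0.0747). Of the list, 24 of 39 fold changes were negative (61.5%), close to the 58% of all tested genes, and the median was -0.09.

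The 3 fatty acid promoters shown belong to the called gene Fads3 and to Thrsp and Fasn, which are among the members with wide differences, at chr19:10041298-10041547 on the plus strand, chr7:97417551-97417800 on the minus strand and chr11:120824548-120824797 on the minus strand, in the same notation. Me1, with a log2 fold change of -1.14 beside -1.06 in Fasn, is not shown.
Fads3: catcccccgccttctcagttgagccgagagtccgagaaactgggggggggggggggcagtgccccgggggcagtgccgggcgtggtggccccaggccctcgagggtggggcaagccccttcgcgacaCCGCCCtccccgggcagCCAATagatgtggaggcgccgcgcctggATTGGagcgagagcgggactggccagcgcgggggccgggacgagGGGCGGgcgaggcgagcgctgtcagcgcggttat
Thrsp: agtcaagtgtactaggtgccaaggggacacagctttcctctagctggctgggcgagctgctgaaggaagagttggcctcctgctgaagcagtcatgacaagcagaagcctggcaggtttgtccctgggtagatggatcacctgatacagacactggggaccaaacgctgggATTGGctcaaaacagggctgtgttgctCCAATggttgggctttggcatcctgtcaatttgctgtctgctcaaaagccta
Fasn: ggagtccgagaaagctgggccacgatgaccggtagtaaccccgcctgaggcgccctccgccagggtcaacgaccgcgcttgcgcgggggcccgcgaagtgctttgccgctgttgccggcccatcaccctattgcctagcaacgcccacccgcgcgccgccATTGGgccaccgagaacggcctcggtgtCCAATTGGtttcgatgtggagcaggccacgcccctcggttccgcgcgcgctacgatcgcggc
The 3 sequences held CCAAT matches in either orientation, which overlap in Fasn, and the GC box match was found in Fads3 and in neither of the others. The sterol element TCACNCCAC and the E-box CACGTG had no match in these windows, which says only that these letters are not there.

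Other gene lists were set beside the members. Clock genes, which set daily rhythms of lipid synthesis, were listed for 15 of 19. Of these, 13 had a negative fold change (median -0.80), where 58% of all tested genes were negative (median -0.07). With limma 0 were called, where 4.63% of all tested genes were. At an unadjusted p under 0.05, 6 were lower and 1 was higher, where 10.3% of all tested genes were lower and 9.21% higher. Nfil3, a repressor, had 28, 19 and 17 in LV livers, against 12, 7 and 5 in untreated livers. Dbp, an output factor of the clock, had 17, 53 and 57 in LV livers, against 40, 120 and 167 in untreated livers, and Gm129 (now Ciart), a repressor, had 2, 7 and 2 in LV livers, against 2, 11 and 25 in untreated livers. Of 15 listed genes of fasting and feeding, 12 were negative (median -0.51) with 0 called. At an unadjusted p under 0.05 in limma, 4 were lower and 0 higher. In 5 of them every LV value lay below every untreated value, where 11% of all tested genes did so. G6pc, the last step of glucose output, had 38, 78 and 23 in LV livers, against 128, 274 and 89 in untreated livers, and Angptl4, a fasting-induced lipase inhibitor, had 11, 36 and 26 in LV livers, against 58, 59 and 124 in untreated livers. Cyp4a10, a fatty acid hydroxylase under PPAR-alpha, had 105, 177 and 69 in LV livers, against 306, 104 and 272 in untreated livers. Kupffer cell and macrophage markers (13 listed of 15) summed to between 243 and 441 in LV livers, against 369 to 482 in untreated livers, and sinusoidal endothelial markers (12 of 12) to between 125 and 217 in LV livers, against 220 to 250 in untreated livers. Fold changes were negative in 10 of the 13 and 9 of the 12, and 0 were called in either list. Within LV livers, replicate 1 was lowest in 11 of the 13 and 10 of the 12, and in 2372 of all 8386 tested genes. Stellate cell and fibroblast markers (11 of 13) summed to between 161 and 189 in LV livers, against 161 to 207 in untreated livers. Of these 11, 4 had their lowest values in LV replicate 3 and untreated replicate 2, where 9.87% of all tested genes did. The same held for 10 of 14 female-biased genes, 5 of 15 fasting and feeding genes and 3 of 12 hepatocyte markers. It held for 0 of 15 clock genes, 1 of 13 Kupffer cell and macrophage markers and 1 of 12 endothelial markers. The part of these genes and cells in the member values was not tested.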

How the data were processed

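RNA from whole liver was made into libraries with an Illumina TruSeq kit, per the labels' protocols. The submitters' processing notes list mm9 as genome build, and for aligner, annotation and counting the tools are not stated there. The deposited numbers were taken as a score, because they are whole while their sums and spread look like those of scaled and rounded values; how the authors made them is not stated, count tests were not used, and depth is unknown. Genes reaching 1 in 3 or more of 6 libraries were kept (8386 of 8390). limma 3.58.1 (R 4.3.3, intensity trend, two-sided, Benjamini-Hochberg adjustment over all tested genes) was run on log2(value + 1), and the fit was tested on simulated data. Members and lists were chosen with earlier results of these data known. All members were named, with values per library for those with a small p, no overlap or a regulatory or rate-limiting role, and for others that complete a step. Of other lists, called genes and the 3 with the smallest p or the largest changes were named; Cyp4a12a, Cyp2b9, the Y-linked genes and those marked in the text were chosen after their values were seen. Gpam, a member, and 2 second names were not counted again in the list of other lipogenic genes. List genes were matched by symbol or a unique RefSeq synonym, and promoters, from RefSeq assembly GRCm38.p6, by symbol. Alternatives were each library left out, LV replicate 3 and untreated replicate 2 left out together, a pseudocount of 0.1, a mean of at least 5, no filter, a replicate block, upper quartile, median-of-ratios and quantile scaling, and added rounding noise. Some other genes of the lists are not reported here.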

Additional observations from a re-analysis of the deposited data

How the results depend on the processing

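With libraries left out, singly or LV replicate 3 together with untreated replicate 2, the genes called ranged from 119 to 313 higher and from 10 to 136 lower (315 and 73 with all libraries), the fatty acid members called lower from 0 to 1, the other lipogenic genes called from 0 to 1 higher and from 0 to 2 lower, and the sterol members and other sterol genes called stayed at 0. The fold changes of the following genes, uncalled with all libraries and in these fits, changed sign in at least 1 of these fits and had these ranges of log2 fold change: Sqle -0.25 to 0.61, Acat2 -0.57 to 0.068, Hmgcs1 -0.95 to 0.46, Mvk -0.70 to 0.098, Mvd -0.97 to 0.23, Fdps -0.65 to 0.19, Fdft1 -0.67 to 0.10, Lss -0.61 to 0.35, Sc4mol -0.64 to 0.053, Hsd17b7 -0.35 to 0.15, Dhcr7 -0.32 to 0.13, Insig1 -0.78 to 0.068, Srebf1 -0.23 to 0.49, Cyp51 -0.55 to 0.055, Tm7sf2 -0.33 to 0.0020, Scd1 -0.65 to 0.17, Srebf2 -0.060 to 0.47, Acaca -0.35 to 0.053. Fits with 2 libraries in a group pool the spread over groups. Median-of-ratios scaling and quantile normalization gave Srebf1 a log2 fold change of 0.034 and 0.035. The other lipogenic genes called lower were 2 with a mean of at least 5, with median-of-ratios scaling and with upper quartile scaling (Ppargc1b joined), and 3 with rounding noise, where fatty acid members called lower were 2 (Thrsp joined). The replicate block gave 145 higher and 11 lower genes, 0 fatty acid members and 0 other lipogenic genes lower; Fads3 and Acsl1 then had adjusted p of 0.186 and 0.0599 in limma. The labels do not say whether same-numbered livers were paired. Same-numbered deviations from the group mean correlated at 0.28, -0.47 and -0.34 across genes, and LV replicate 3 went with untreated replicate 2 (0.61). The deviations of the 3 livers of a group sum to 0 in each gene, so these correlations depend on one another and cannot settle whether livers were paired. Fits without a library hold fewer samples, and the cause of the other changes was not tested. Rounding limits genes with low values such as Fads3, Dgat1 and Acaca.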
